A study of Mus musculus with 16 samples.

Results

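The genes for voltage-gated sodium channels, voltage-gated calcium channels and HCN channels were followed in the hypothalamus of 16 mice. Members were the array probes whose gene name in the files was a sodium channel gene (Scn, a number, then a or b), a calcium channel gene (Cacna, Cacnb or Cacng) or an HCN channel gene (Hcn and a number), whatever their values. There were 67 such probes, of 43 genes, among 55681 probes on the array. Of these, 60 probes of 40 genes passed the filter on dim signal (well above background on 8 or more arrays) and were tested among 35144 probes that passed it. The gene Scn2a carries the older name Scn2a1 in the files, so its probes fell outside this choice and are given with the channel partners.

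These channels set how neurons fire. The pore-forming alpha subunit of a sodium channel opens on depolarisation and carries the rising phase of the action potential, and its beta subunits tune its gating and its place in the membrane. Calcium channels let calcium in on depolarisation and start transmitter release and signalling to the nucleus; their alpha-1 subunit is the pore, the alpha-2-delta and beta subunits bring it to the membrane and tune it, and several members of the gamma family serve AMPA-type glutamate receptors instead. HCN channels open on hyperpolarisation, are gated by cyclic nucleotides and help pace rhythmic firing. In the hypothalamus, whose neurons control feeding, body temperature and hormone release, channels of these families shape pacemaking and burst firing.

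The series compared 8 control mice with 8 KO chimera, mice given bone marrow of a double adrenergic receptor knockout, and asked how marrow cells without these receptors of the sympathetic nervous system bear on bone, hypothalamus and gut. Recipients were C57BL/6J mice irradiated with 950 Rad, which got marrow of the knockout donors by 1 retro-orbital injection, mixed 1 to 4 (donor strain to C57BL/6J), and recovered for 2 to 3 months. The labels repeat this treatment for all 16 animals, controls included, so they do not settle what the controls received; ages and sexes were not given. The host's own brain cells were not of the donor strain, so the deletion itself could be present only in cells derived from the marrow. Each animal gave 1 array of total RNA labelled with Cy3.

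Values are log2 of the processed signal relative to the 75th percentile of the same array, so 0 is that percentile and a difference of 1 is a 2-fold change. Between 27276 and 43248 spots per array were well above background, KO chimera 1 having the fewest and control 8 the most. Both lay on slide 4. The linear fit of the array's spike-in controls had an R-squared of 0 for control 8 and of 0.9656 or more on the other arrays. Member probes well above background numbered 48 to 64 per array, again lowest in KO chimera 1. Of 24 hypothalamic markers, 21 were well above background on all 16 arrays, and of the 23 tested, 17 were higher in KO chimera and 6 lower (0 passed the test). Markers of the thalamus, which borders the hypothalamus, were lower in KO chimera for 12 of 13 genes (1 passed the test), with a mean level of 0.27 to 2.47 in controls and -0.01 to 1.51 in KO chimera. Oligodendrocyte markers were lower for 11 of 13 genes (4 passed the test), at 2.61 to 3.24 in controls and 2.44 to 2.82 in KO chimera. Pan-neuronal markers were lower for 10 of 11 genes (0 passed the test), at 4.59 to 4.86 in controls and 4.36 to 4.60 in KO chimera. Microglial markers were lower for 10 of 10 genes (1 passed the test) and red blood cell markers for 5 of 5 (1 passed the test), while ependymal markers were higher for 6 of 6 (0 passed the test). The adrenergic receptor gene Adrb1, deleted in the donors, was read by a pair of probes: A_52_P322181 was lower in KO chimera by a log2 fold change of -0.75 ± 0.14 (SE; adjusted p = 0.0181, limma with Benjamini-Hochberg adjustment over all probes tested), while A_51_P203827 differed by -0.01 ± 0.09 (adjusted p = 0.965).

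Several genes below had probes with unlike log2 fold changes, and why they differed was not tested. The first 30 of the 60 bases of 12 probes are shown, all in lower case because no motif is marked. They include the Scn2b probe, which passed the test. The others are probes of genes whose probes gave unlike log2 fold changes, or that had a probe too dim to be tested. No pair passed the test of probe disagreement given below.
Scn2b A_51_P212741: gttctttatgctttttaggggagaacccag
Scn3a A_55_P2065288: agagtttagcagtgagtcagaactggaaga
Scn3a A_55_P2065294: tactggacagcttccgccagaggtgataat
Scn3a A_55_P2119772: gtaacaccctgctacactatctactgagaa
Cacna1c A_55_P2235931: ctgtgtgagacgctactgtatattcctgta
Cacna1c A_55_P2014154: tgacgcctgcgacatgacaatagaggagat
Cacna2d2 A_55_P1976734: tgtcagctgtgtcctgtgggggcgtgtgtg
Cacna2d2 A_55_P2122879: tattttcaaatggtttattacagaagatca
Cacng2 A_55_P1972172: ccacaggctatgcggggggaaaatataacc
Cacng2 A_52_P539692: catgtaccattattttaacatttaataaaa
Hcn2 A_55_P2088202: tgcgcccggctgtccccccatcgccctgcg
Hcn2 A_55_P2088203: agaatatggatcaagtgcaatactcggccc
The members had a GC content of 20% to 81.7%. The Cacna2d2 probes lay 370 bases apart by their starts, at 55.0% GC (A_55_P1976734) and 21.7% GC (A_55_P2122879), and the Hcn2 probes 180 bases apart, at 81.7% (A_55_P2088202) and 60.0% GC (A_55_P2088203). Of 46 members that could be compared with RefSeq, 46 lay on the strand of their gene. The files give the mm9 position of a probe but not its exon or whether it lies in a UTR, and this was not analysed here.

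Across the whole group, 1 of 60 tested members passed the test, the sodium channel subunit Scn2b, which was lower in KO chimera. This is 1.67% of members, against 2.61% of all probes tested (917 of 35144), a share near that of probes in general. By direction, 0 of 60 members were called higher against 0.794% of all probes (279), and 1 was called lower against 1.82% (638). The count moved with single animals: it was 0 without any of controls 1, 3, 4, 5 and 7 or KO chimera 1, 2, 4, 6 and 7, it was 2 without control 2 or control 6, and 3 without control 8. It was also 0 without controls 5 and 7 together, and 3 among the 48 members well above background on all 16 arrays (Scn2b and Cacna1c lower, Scn3a higher). At an unadjusted p under 0.05, 13 members (21.7%) differed, against 19.9% of all probes; 5 were higher (9.62% of all probes) and 8 lower (10.3% of all probes). At an adjusted p under 0.1 there were 5 members, against 7.22% of all probes. The groups did not overlap for 0 members, against 0.831% of all probes. Of the members, 33 had a log2 fold change above 0 and 27 below, with a median of 0.0155, beside 53.7% above 0 and a median of 0.0171 over all probes. Counts above and below 0 by class, given below, are likewise of log2 fold changes. For 40 of the 60, the 95% interval of the difference lay within 0.5 of 0 on either side, so changes of that size or larger were outside it; this held for 24008 of all 35144 probes. The largest sizes, at 0.5 or over, were in 3 members, Scn4b, Cacna1s and Cacna1b, against 4.64% of all probes, and 0 of these passed the test.

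**Figure D1:**
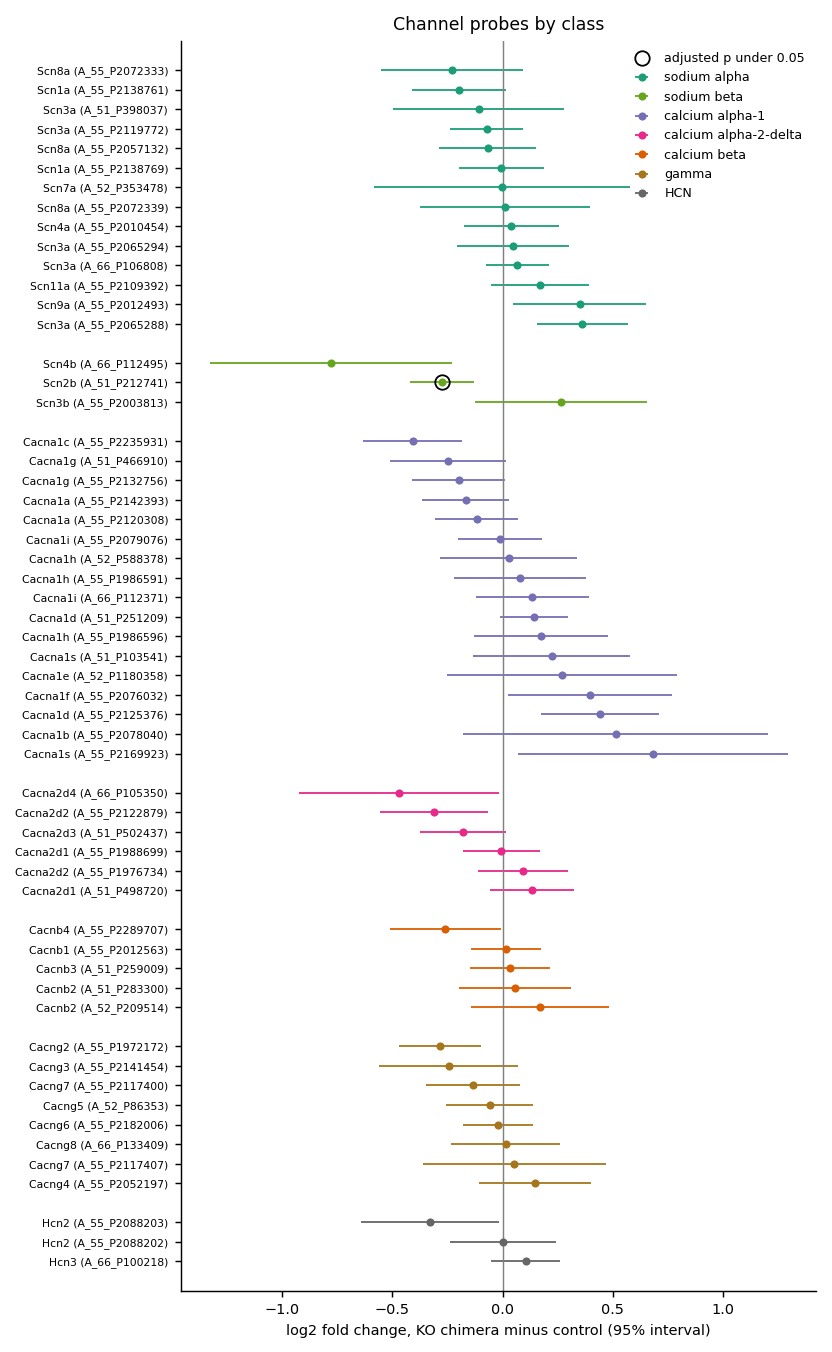
Log2 fold change (KO chimera minus control, x axis) of 56 tested channel probes, 1 row each, with the 95% interval of the limma fit, grouped by channel class in colour. Most intervals cross 0, and the circled Scn2b probe is the 1 member with an adjusted p under 0.05.

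The sign of a member's difference went with its brightness. Of the 27 members with a mean signal above 0, 9 had a log2 fold change above 0 and 18 below (median -0.07). Of the 16 between -2 and 0, 11 were above and 5 below (median 0.06), and of the 17 dimmest, 13 were above and 4 below (median 0.08). All probes did the same: 33.8%, 61.5% and 68.8% of them had a log2 fold change above 0 in these ranges, with medians of -0.05, 0.05 and 0.11. Scaling each array to its median in place of its 75th percentile shifted all probes by a median of -0.13, and with it the medians of the sodium alpha, calcium beta and HCN classes, which were just above 0, turned below it (-0.11, -0.09 and -0.07); relative to that shift they kept their place. Under quantile normalization the sodium alpha median was -0.0029.

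The beta subunits of sodium channels had 3 of 4 probes lower. The 1 called was Scn2b, the call already counted for the whole group, beside 1.82% of all probes called lower. The median log2 fold change was -0.26, the furthest below 0 of any class. After adjustment for a score of thalamus markers (the mean over markers of each animal's deviation, in log2 units) that median was -0.16, and after adjustment for the like score of oligodendrocyte markers 0.0092, where HCN (-0.0213) and alpha-2-delta (-0.0192) lay lower. Scn2b encodes a beta subunit that is linked covalently to the alpha subunit and brings channels to the cell surface. Its probe (A_51_P212741, chr9:44937945-44938004, mm9) read 4.36 to 4.79 in controls (median 4.60) and 4.16 to 4.47 in KO chimera (median 4.30). All 8 KO chimera lay below the control median and 5 lay below every control, while control 2, the lowest of its group, lay within the KO chimera range. The group means were 4.59 ± 0.14 (SD, n = 8) and 4.32 ± 0.10 (SD, n = 8). The log2 fold change was -0.27 ± 0.07 (SE), with a 95% interval of -0.42 to -0.13 and an adjusted p of 0.0462. Scn2b was lower in KO chimera on each of the 5 slides that held both groups, by -0.16 to -0.37, and on both scan days (-0.26 and -0.29). Slides 4 and 5 each held 1 control and 1 KO chimera, slide 1 held 1 control and slide 3 held 1 KO chimera. Most slide differences, here and for other probes, thus rest on 1 animal in a group. With slide as a fixed block the difference was -0.27 and no longer passed (adjusted p = 0.0818), and with slide as a random block it was -0.27 and passed (adjusted p = 0.0344).

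The call of Scn2b was close to its threshold. When 1 animal was left out, it passed in 2 of 16 cases, without control 2 (adjusted p = 0.0352) and without KO chimera 3 (adjusted p = 0.0450); in the other 14 the adjusted p was 0.0547 to 0.0934, and the log2 fold change over all 16 stayed between -0.31 and -0.24. Controls 5 and 7 were highest for Scn2b, at 4.79 and 4.77, and also had the highest thalamus marker scores, 1.27 and 1.28. Without these 2 animals, a choice made after seeing the data, the difference was -0.21 (adjusted p = 0.177). Because they were the highest controls, leaving them out had to shrink the difference. The same holds for the other probes below where they were highest. With the thalamus score as a covariate the Scn2b difference over all 16 animals was -0.17 (adjusted p = 0.277), and with the oligodendrocyte score -0.14 (adjusted p = 0.618). Both scores were built from markers that were mostly lower in KO chimera. A fit with either score, here and elsewhere, therefore cannot separate the score from the group. In pieces of whole tissue, fewer cells of a type and less RNA per cell cannot be told apart.

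Scn4b, a beta subunit tied to resurgent sodium current, had the widest spread of the class. It was chosen for description after its values were seen. Its probe (A_66_P112495) read -0.87 to 1.42 in controls (median 0.08) and -0.65 to -0.25 in KO chimera (median -0.52). Controls 7 and 5 stood highest, at 1.42 and 1.31, followed by control 6 at 0.52, while control 2 was the lowest of all 16 animals. Thus 7 controls lay above every KO chimera and 1 below every one. The SD was 0.78 in controls and 0.14 in KO chimera (n = 8 each). The log2 fold change was -0.78 ± 0.26 (SE; 95% interval -1.33 to -0.23; adjusted p = 0.108). Without control 2 it was -0.94 with an adjusted p of 0.0489, the 1 case of the 16 in which it passed. Without controls 5 and 7 it was -0.41 (adjusted p = 0.265). With the thalamus score as a covariate it was -0.45 (adjusted p = 0.485), and with the oligodendrocyte score it turned to 0.06 (adjusted p = 0.954).

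**Figure D2:**
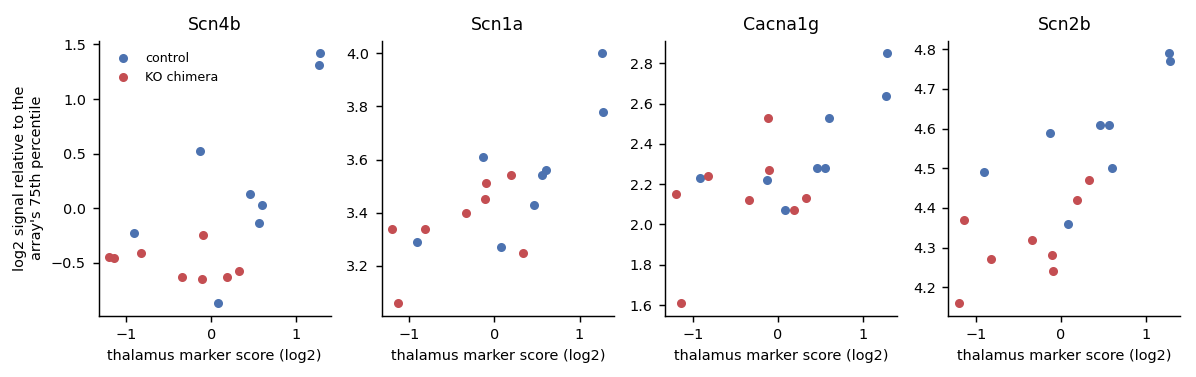
Signal of the Scn4b, Scn1a (A_55_P2138761), Cacna1g (A_51_P466910) and Scn2b probes (y axis, log2, with the 75th percentile of the array set to 0) against the thalamus marker score (x axis, log2), 1 point per animal. Controls 5 and 7, with scores of 1.27 and 1.28, hold the 2 highest values in all 4 panels.

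Scn3b, a beta subunit expressed widely in brain, did not pass the test. It read 2.53 to 3.06 in controls and 2.52 to 3.11 in 7 KO chimera, while KO chimera 1 read 4.24. Its log2 fold change was 0.27 ± 0.18 (SE, adjusted p = 0.440), and without that animal it was 0.09 (adjusted p = 0.637).

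**Figure D3:**
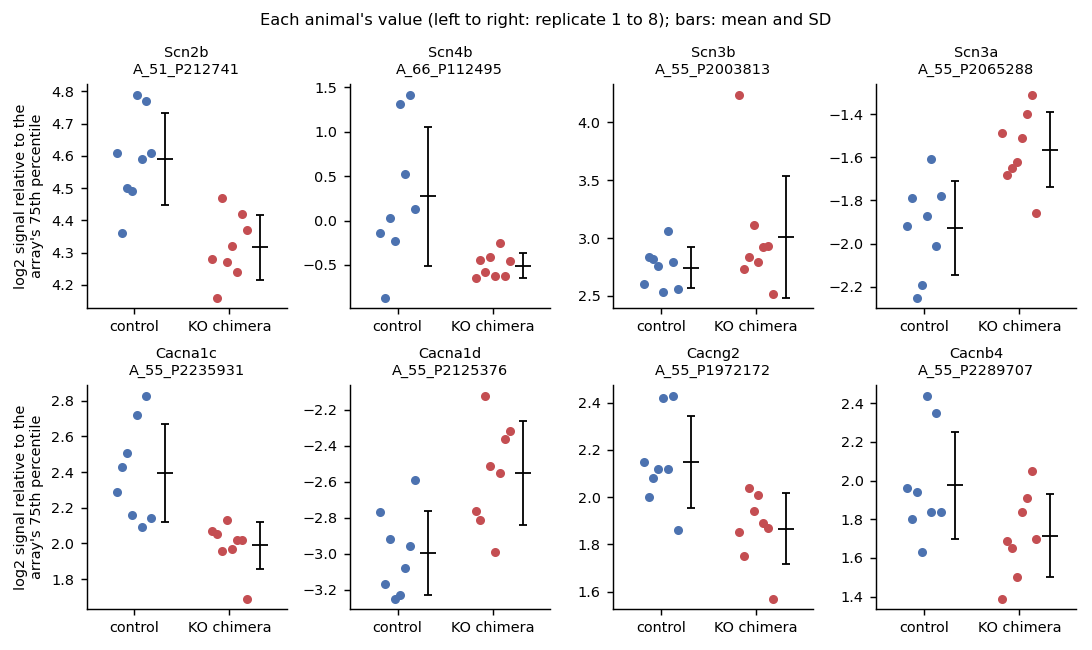
Values of 8 channel probes in each animal (y axis, log2 signal with the 75th percentile of the array set to 0; a separate scale per panel), controls in blue and KO chimera in red, with bars for the mean and SD of each group of 8. The groups overlap in all 8 panels, and single animals stand apart in Scn3b (KO chimera 1 at 4.24) and Scn4b (controls 5 and 7 at 1.31 and 1.42).

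Among the pore-forming sodium channel subunits, 8 tested probes were above 0 and 7 below, with a median of 0.01, and 0 of 15 passed the test. Scn2a, also a pore-forming subunit, is not among these 15 because of its older name. Its probe A_55_P2126473 was lower and passed the test (-0.25 ± 0.05, SE, adjusted p = 0.0214). Its probes A_51_P127738 (-0.14 ± 0.08) and A_55_P2106514 (0.21 ± 0.08) did not, as given with the channel partners. Scn1a encodes a channel prominent in inhibitory interneurons and is mutated in Dravet syndrome. Its brighter probe (A_55_P2138761, chr2:66111022-66111081) read 3.27 to 4.00 in controls (median 3.55) and 3.06 to 3.54 in KO chimera (median 3.37). All 8 KO chimera lay below the control median, controls 5 and 7 were highest, and the ranges overlapped. The log2 fold change was -0.20 ± 0.10 (SE, adjusted p = 0.283); without controls 5 and 7 it was -0.09 (adjusted p = 0.679). The other Scn1a probe (A_55_P2138769) differed by -0.0059 ± 0.09 (adjusted p = 0.979).

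Scn3a, a sodium channel expressed most in the developing brain, was read by 5 tested probes that did not give one answer. The probe A_55_P2065288 (chr2:65332960-65333019), which the files assign to an Ensembl transcript of its own, read -2.25 to -1.61 in controls (median -1.90) and -1.86 to -1.31 in KO chimera (median -1.56). All 8 KO chimera lay above the control median and 4 lay above every control, with KO chimera 8 the lowest of its group. Its log2 fold change was 0.36 ± 0.10 (SE; 95% interval 0.15 to 0.57), with an adjusted p of 0.0557, and it was higher on each of 5 slides, by 0.22 to 0.56. It passed the test without control 6 (0.41, adjusted p = 0.0425) or without KO chimera 8 (0.40, adjusted p = 0.0459). The probe A_55_P2119772 (chr2:65296320-65296379) differed by -0.07 ± 0.08, A_66_P106808 by 0.07 ± 0.07, A_55_P2065294 by 0.05 ± 0.12 and A_51_P398037 by -0.11 ± 0.18 (adjusted p = 0.605 to 0.854).

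The other sodium channel subunits were given by their ranges. Scn9a, known from pain-sensing neurons, was above the control median in 8 of 8 KO chimera, at 0.35 ± 0.14 (adjusted p = 0.184). Scn8a, the channel of mature axon initial segments and nodes, had 3 probes between -0.23 and 0.01, with adjusted p of 0.420 to 0.979. Scn4a, Scn7a and Scn11a differed by -0.0043 to 0.17. Scn10a was well above background on 4 control and 3 KO chimera arrays and was not tested.

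The pore-forming calcium channel subunits had 11 tested probes above 0 and 6 below, with a median of 0.14, and 0 of 17 passed the test. That median was near 0 in other settings: it was -0.01 over the probes well above background on all 16 arrays and 0.04 without controls 5 and 7. Cacna1c encodes Cav1.2, an L-type channel that couples activity to gene expression. Its probe A_55_P2235931 (chr6:118537316-118537375) read 2.09 to 2.83 in controls (median 2.36) and 1.69 to 2.13 in KO chimera (median 2.02). Only KO chimera 4, at 2.13, lay above the lowest control, and controls 7 and 5 were highest at 2.83 and 2.72. The means were 2.40 ± 0.28 and 1.99 ± 0.13 (SD, n = 8 each), and the log2 fold change was -0.41 ± 0.11 (SE; 95% interval -0.63 to -0.18; adjusted p = 0.0513). It passed the test without control 6 (-0.45, adjusted p = 0.0425) or control 8 (-0.44, adjusted p = 0.0409), and in the exact permutation test over animals (adjusted p = 0.0231 over all probes). Without controls 5 and 7 it was -0.28 (adjusted p = 0.165), and with the thalamus score as a covariate -0.24 (adjusted p = 0.306). It was lower on 5 of 5 slides, by -0.08 to -0.70. The other Cacna1c probe, A_55_P2014154, whose mean was -4.91 in controls and -4.21 in KO chimera, was well above background on 3 control and 4 KO chimera arrays and was not tested.

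Cacna1g encodes Cav3.1, a T-type channel of thalamic relay neurons. Its probe A_51_P466910 read 2.07 to 2.85 in controls (median 2.28) and 1.61 to 2.53 in KO chimera (median 2.14). Controls 7 and 5 were highest, at 2.85 and 2.64, and KO chimera 8 was lowest. The log2 fold change was -0.25 ± 0.12 (SE, adjusted p = 0.278), and the other Cacna1g probe gave -0.20 ± 0.10 (adjusted p = 0.275). Without controls 5 and 7 the first was -0.13 (adjusted p = 0.659), and with the thalamus score as a covariate -0.06 (adjusted p = 0.870).

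Both Cacna1d probes, for the L-type channel Cav1.3 that supports pacemaking, had log2 fold changes above 0. The probe A_55_P2125376, chosen after its values were seen, read -3.25 to -2.59 in controls and -2.99 to -2.12 in KO chimera. All 8 KO chimera lay above the control median of -3.02 and 5 lay above every control. Its log2 fold change was 0.44 ± 0.13 (SE; 95% interval 0.18 to 0.71; adjusted p = 0.0657), and the brighter A_51_P251209 gave 0.14 ± 0.07 (adjusted p = 0.286). The first passed the test without control 8 (0.50, adjusted p = 0.0410) or KO chimera 5 (0.51, adjusted p = 0.0464), and it was higher on 3 of 5 slides.

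The remaining alpha-1 subunits showed no call. Cacna1a, the P/Q-type channel of nerve terminals, had values of -0.17 ± 0.09 and -0.12 ± 0.09 at its probes (adjusted p = 0.332 and 0.486), and for the brighter probe, A_55_P2142393, all 8 KO chimera lay below the control median. Cacna1s and Cacna1b had the largest values, at dim probes with wide spread. Cacna1s, the skeletal muscle channel, gave 0.68 ± 0.29 (adjusted p = 0.200) at A_55_P2169923 and 0.22 ± 0.17 at A_51_P103541. Cacna1b, the N-type channel, gave 0.51 ± 0.33 (adjusted p = 0.400), with KO chimera 3 at -1.86 and the other 7 at -5.00 to -3.49; without KO chimera 3 it was 0.23 (adjusted p = 0.577), and under quantile normalization 0.12 (adjusted p = 0.932). Cacna1f, known from photoreceptors, gave 0.40 ± 0.18 (adjusted p = 0.220) at A_55_P2076032, while its A_55_P2043718 was not well above background on any array. Cacna1e, Cacna1h and Cacna1i had 6 probes between -0.01 and 0.27.

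Of the alpha-2-delta subunits, 4 tested probes were below 0 and 2 above, with a median of -0.09 and 0 calls among 6. Cacna2d2, a subunit strongly expressed in cerebellum and a binding site of gabapentin, gave opposite signs at its probes, except within scan day 2, where A_55_P1976734 was also below 0 (-0.04), and with arrays scaled to their median, where the shift common to all probes took it to -0.03 and A_55_P2122879 to -0.44. The probe A_55_P2122879 (chr9:107431615-107431674) read -0.16 to 0.43 in controls (median 0.21) and -0.61 to 0.15 in KO chimera (median -0.08). All 8 KO chimera lay below the control median, and 6 controls lay above every KO chimera. Its log2 fold change was -0.31 ± 0.12 (SE, adjusted p = 0.144). The brighter A_55_P1976734 (chr9:107431245-107431304) read 3.81 to 4.48 in controls (median 4.10) and 4.07 to 4.50 in KO chimera (median 4.17). The upper ends of the ranges nearly met, while 3 controls lay below every KO chimera, and its log2 fold change was 0.09 ± 0.10 (adjusted p = 0.630). Cacna2d1, the main gabapentin target, differed by 0.13 ± 0.09 and -0.0051 ± 0.08, Cacna2d3 by -0.18 ± 0.09 (adjusted p = 0.287) and Cacna2d4 by -0.47 ± 0.22 (adjusted p = 0.236).

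The calcium channel beta subunits, which bind the alpha-1 pore from inside the cell, had 4 tested probes above 0 and 1 below, with a median of 0.03 and 0 calls among 5. Cacnb4, whose loss gives the lethargic mouse, was the lower one. It read 1.63 to 2.44 in controls (median 1.89) and 1.39 to 2.05 in KO chimera (median 1.70). Controls 5 and 7 were again highest, at 2.44 and 2.35. The log2 fold change was -0.26 ± 0.12 (SE, adjusted p = 0.239), and -0.12 (adjusted p = 0.628) without those animals. Cacnb1, Cacnb2 and Cacnb3 differed by 0.02 to 0.17, and the Cacnb2 probe A_55_P2186605 was not tested, being well above background on 1 control and 3 KO chimera arrays.

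The gamma family had 3 tested probes above 0 and 5 below, with a median of -0.04 and 0 calls among 8. Cacng2 encodes stargazin, which carries AMPA receptors to the synapse. Its probe A_55_P1972172 (chr15:77825290-77825349) read 1.86 to 2.43 in controls (median 2.12) and 1.57 to 2.04 in KO chimera (median 1.88). All 8 KO chimera lay below the control median, 6 controls lay above every KO chimera, and controls 7 and 5 were highest. The log2 fold change was -0.28 ± 0.09 (SE; 95% interval -0.47 to -0.10; adjusted p = 0.0874), lower on 5 of 5 slides. Without control 8, the lowest control, it was -0.33 with an adjusted p of 0.0496; without controls 5 and 7 it was -0.19 (adjusted p = 0.301). A neighbouring probe, A_52_P539692 (chr15:77825180-77825239, 20% GC), was well above background on 1 control array and 0 KO chimera arrays.

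Cacng7, another AMPA receptor auxiliary subunit, read 3.15 to 3.69 in controls (median 3.48) and 3.08 to 3.63 in KO chimera (median 3.31) at A_55_P2117400. Its log2 fold change was -0.13 ± 0.10 (SE, adjusted p = 0.484), and 0.05 ± 0.20 (adjusted p = 0.906) at A_55_P2117407. Cacng3 differed by -0.25 ± 0.15 and Cacng4 by 0.15 ± 0.12, with adjusted p of 0.378 and 0.525. Cacng5, Cacng6 and Cacng8 differed by -0.06 to 0.02, and Cacng1, a skeletal muscle subunit, was well above background on 2 arrays of each group and was not tested.

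HCN channels had 4 tested probes above 0 and 1 below, with a median of 0.05 and 0 calls among 5. Hcn2, the HCN gene known for broad expression in thalamus and brainstem, was read by a pair of neighbouring probes. The probe A_55_P2088203 (chr10:79198592-79198651) read 2.18 to 3.13 in controls (median 2.72) and 2.03 to 2.92 in KO chimera (median 2.38). It was below the control median in 7 of 8 KO chimera, KO chimera 8 being the exception, and its log2 fold change was -0.33 ± 0.15 (SE; 95% interval -0.64 to -0.02; adjusted p = 0.222). The probe A_55_P2088202 (chr10:79198412-79198471) read 6.27 to 7.08 in controls (median 6.67) and 6.5 to 6.98 in KO chimera (median 6.71), with a log2 fold change of 0.0035 ± 0.11 (95% interval -0.24 to 0.24; adjusted p = 0.989). Hcn3 differed by 0.11 ± 0.07 (adjusted p = 0.444). Hcn4, the cardiac pacemaker channel, was not well above background on any array.

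Whether probes of one gene gave different answers was tested for all 28 pairs of tested probes in 15 genes, by the exact two-sided permutation test of the difference between the 2 probes within each animal. After Benjamini-Hochberg adjustment over the 28 pairs, 0 passed 0.05, while 5 had an unadjusted p under 0.05 and 13 had opposite signs. The smallest p this test can give is 0.0001554. The pair with the smallest p was Scn3a A_55_P2065288 against A_55_P2119772, whose log2 fold changes differed by 0.43 (exact p = 0.00264, adjusted p = 0.0740). Cacna2d2 came next: the gap between its probes was 3.91 ± 0.18 in controls and 4.32 ± 0.34 in KO chimera (SD, n = 8 each), a difference of 0.40 (exact p = 0.00544, adjusted p = 0.0762). The other 3 pairs under 0.05 were all within Scn3a (exact p = 0.0120, 0.0146 and 0.0295), and 2 of them held A_55_P2065288. For Hcn2 the probes differed by 0.33 (exact p = 0.0735, adjusted p = 0.257), and for Cacna1d by 0.30 (exact p = 0.0601, adjusted p = 0.257). The Cacna2d2 pair passed without KO chimera 6 and under quantile normalization, and both it and the first Scn3a pair passed among the 17 pairs of probes well above background on all 16 arrays.

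**Figure D4:**
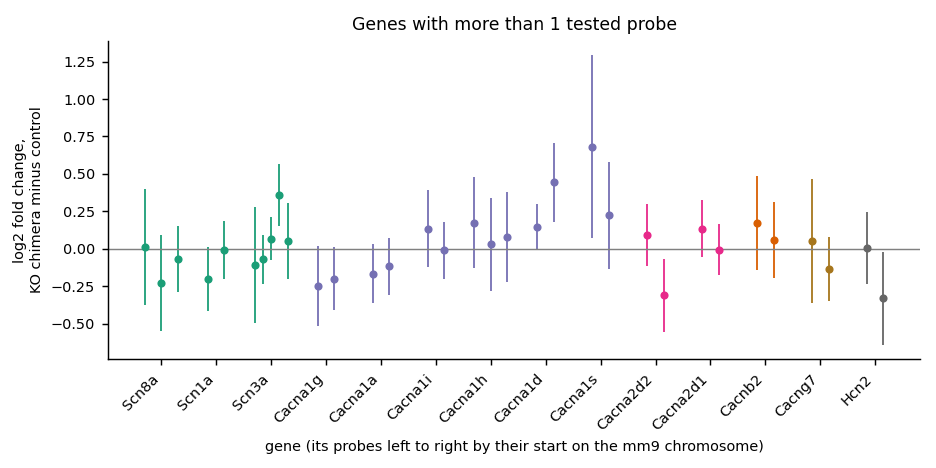
Log2 fold change (KO chimera minus control, y axis) of each tested probe of 14 genes with more than 1, with the 95% interval of the limma fit; colours mark the channel classes as in the plot of members by class. In the exact permutation test the pairs with the smallest p were in Scn3a and Cacna2d2. Of all 28 pairs tested, 0 differed past an adjusted p of 0.05.

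Genes known to work with these channels were taken from a fixed list of scaffolds, modulators and auxiliary subunits, with 84 of 90 probes tested in 48 genes. Of these, 5 were called, all lower in KO chimera, which is 5 of 84 probes against 1.82% of all probes called lower. That share covers dim probes too. Among the partners 30 had a log2 fold change above 0 and 54 below, with a median of -0.07. Over all probes 53.7% were above 0. Among all probes with a mean signal above 0 it was 33.8%, with a median of -0.05. The part of brightness in the partner counts was not tested. Scn2a (Scn2a1 in the files), a pore-forming sodium channel of excitatory neurons, was lower at A_55_P2126473: 3.75 ± 0.05 in controls and 3.51 ± 0.09 in KO chimera (SD, n = 8 each), a log2 fold change of -0.25 ± 0.05 (SE, adjusted p = 0.0214). Its other probes gave -0.14 ± 0.08 at A_51_P127738, a mean over 10 spots (adjusted p = 0.298), and 0.21 ± 0.08 at A_55_P2106514 (adjusted p = 0.170), so the 3 probes did not share a sign. Nedd4l, a ubiquitin ligase that removes sodium channels from the membrane, was lower by -0.30 ± 0.07 at A_55_P2030756 (adjusted p = 0.0286) and by -0.24 ± 0.08 at A_55_P2030752, which did not pass (adjusted p = 0.112). Camk2d, a calcium-dependent kinase that modifies channels, was lower by -0.35 ± 0.08 at A_52_P428745 (adjusted p = 0.0381), while 2 other tested probes gave -0.07 and -0.0078. The remaining calls were the HCN partner Kctd3 and the AMPA receptor partner Shisa6. Kctd3 was lower by -0.33 ± 0.08 at A_66_P139250 (adjusted p = 0.0396), while its other probe, A_52_P243102, gave 0.16 ± 0.08 (adjusted p = 0.240). Shisa6 was lower by -0.67 ± 0.17 at A_55_P2154749 (adjusted p = 0.0478). The count was 1 under quantile normalization, 2 with normexp background correction and 1, a higher one, with slide as a fixed block.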

How the data were processed

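Total RNA from hypothalamus of 8 control and 8 KO chimera mice was read on 1-colour Agilent arrays, 1 animal per array. The authors deposited the spot intensity of each array, background-subtracted by Agilent Feature Extraction (version 10.7 per the submitters' processing notes, 10.1.1.1 per the file headers), and a table of log2 values; how it was normalized is not given in the sources used. Against scanner values that table gave a correlation of at least 0.9996 on each array, so its scale is log2 without centring of genes. This was computed without outlier spots and only over deposited values above a cutoff a little below the array medians. Of all deposited values, 22.3% lay at a floor of 2.2. Array medians were 5.21 to 5.26, and the step that aligned the arrays is unknown. The deposited table served as an alternative.

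Without control and outlier spots, the processed intensity was put on the log2 scale, centred on the 75th percentile of each array's non-control probes and averaged over a probe's spots. The 35144 probes with a signal well above background on 8 or more arrays were compared with lmFit and eBayes (limma 3.58.1, R 4.3.3), and p-values were adjusted by Benjamini-Hochberg over them, threshold 0.05. The limma fit and the exact permutation test were tested on simulated data. Precision is limited by 8 animals a group; whether animals shared a cage or litter was not given. No member was saturated. Values of some genes are not reported here. Figures were drawn with matplotlib 3.10.9.

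Members and lists were chosen with earlier results of these data known, so no p is given for a list. Named probes were, in each class, the tested probe with the smallest p and the brightest one, plus all that passed the test; Cacna1b, Cacna1d, Cacna1s, Scn3b and Scn4b were added after their values were seen, for their size, their adjusted p under 0.1 or an animal that stood apart. The remarks for Scn9a and Cacna1a that every KO chimera lay on the same side of the control median were outside this rule. They too were made with the values seen. Of partner genes, the plan was to name up to 3 with the smallest p, and all that passed the test were named. Gene names were those of the files; 60 members matched RefSeq by accession and 7 by symbol. Alternatives were other normalizations, background correction and filters, 1 probe per gene, slide, scan day and replicate number as blocks, other limma settings, marker scores as covariates and leaving out animals.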

Additional observations from a re-analysis of the deposited data

Results flagged for a closer look

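In each group of 8 animals, the highest or lowest value was set against its nearest neighbour, divided by the whole range of the group (Dixon's ratio, at its 95% critical value). Of 48 groups checked, 5 passed. Chance alone flags about 1 in 20 groups, a rate that does not hold here, because Cacna1b, Cacna1s and Scn3b were added after their values were seen. For Cacna1c A_55_P2235931, KO chimera 8 was lowest at 1.69, the next animal being at 1.96. For Cacna1b A_55_P2078040, control 1 was lowest at -5.14, with the next at -4.53. For Cacna1s A_55_P2169923, KO chimera 1 was lowest at -4.41, with the next at -3.53. For Scn3b A_55_P2003813, KO chimera 1 was highest at 4.24, with the next at 3.11. In the mean of the sodium beta class, KO chimera 1 was highest at 0.14, with the next at -0.09. That class mean contains Scn3b, so it repeats the Scn3b value. KO chimera 1, which stands apart in Cacna1s and Scn3b, was also the array with the fewest spots well above background (27276); the part of that in these values was not tested.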

How the results depend on the processing

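The number of member probes called, 1 in the main setting, was 0 under quantile normalization, normexp background correction, the deposited value table, no filter on dim probes, slide as a fixed block, within scan day 1, within scan day 2, with either marker score as a covariate and without controls 5 and 7. It was 2 with 1 probe per gene, eBayes trend and robust or the exact permutation test, 3 over probes on all 16 arrays, with slide as a random block or array weights, and 5 with arrays scaled to their median or a threshold of 0.1. Leaving out 1 animal gave 0 to 3. Over all probes, 917 were called in the main setting (30.4% of them higher), 224 with normexp (10.3% higher), 522 under quantile normalization, 4492 with arrays scaled to their median (5.37% higher) and 444 with no filter (51.6% higher). Animals with equal replicate numbers were treated as sharing only a number, since their correlations ran from -0.07 to 0.23 and were not all above 0.1; with the replicate block 1 member was called, Cacna1d A_55_P2125376 and not Scn2b (adjusted p = 0.0553), and 702 probes in all, and for 3 of 8 numbers the animal that correlated best was the one with the same number.

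With arrays scaled to their median, class medians moved to -0.11 (sodium alpha), 0.0094 (calcium alpha-1), -0.22 (alpha-2-delta), -0.17 (gamma) and -0.0715 (HCN). The calcium alpha-1 median was 0.0563 in the deposited value table, -0.0105 over probes on all 16 arrays, 0.0125 within scan day 2, 0.005 with the thalamus score, 0.0262 with the oligodendrocyte score and 0.0371 without controls 5 and 7; the cause was not tested. With the oligodendrocyte score the sodium beta median was 0.0092. That score also turned Scn1a A_55_P2138761 to 0.0642, Cacna1g A_51_P466910 to 0.0158, Cacng7 A_55_P2117400 to 0.0813 and Scn4b to 0.0622. Cacna2d2 A_55_P1976734 turned to -0.0333 with median scaling, which shifted all probes by a median of -0.13, and -0.0404 within scan day 2. Hcn2 A_55_P2088202, at 0.0035, turned below 0 with median scaling (-0.12, the same shift), normexp (-0.0058), within scan day 2 (-0.21), array weights (-0.0541), the thalamus score (-0.0189), the oligodendrocyte score (-0.11) and without controls 5 and 7 (-0.0352); leaving out 1 animal gave -0.0598 to 0.0559. Scn2b kept its call in 11 of 36 alternatives, one of them the looser threshold, and its direction in all 36. Pairs of disagreeing probes numbered 1 under quantile normalization, 2 over probes on all 16 arrays and 0 to 1 when 1 animal was left out, and partner probes called 1, 2 and 1 under quantile normalization, normexp and slide as a fixed block. With 8 arrays a group, precision is that of the intervals given, and dim probes had wide ones; no detection limit was measured.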
